A study of Homo sapiens with 9 samples.

Results

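NR2E1, the gene of the orphan nuclear receptor TLX, was followed together with 3 genes that have been reported in connection with TLX: CDKN1A, SIRT1 and VHL. Each of the 4 genes was taken by its symbol from a table of 27548 rows and stood on 1 row. The 9 RNA-seq libraries came from MDA-MB-231, a widely used human cell line of triple-negative breast cancer. Libraries S1 to S3 were of control cells transfected with the control siRNA (CTL+siCTL). S4 to S6 were of TLX-overexpressing cells with the same siRNA (TLX+siCTL), and S7 to S9 of TLX-overexpressing cells given siRNA to TLX (TLX+siTLX). All cells had been transfected for 48 h. The sources used here do not give the vector and promoter that drive TLX, the number of clones behind each line or the siRNA sequences. Other differences between the TLX line and the control line cannot be told apart from TLX. No control cells were given siRNA to TLX, so other effects of that siRNA cannot be told apart from the loss of TLX. Whether the 3 libraries of a group are separate cultures is not stated, and p-values then measure only how far these libraries spread, which may be technical.

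TLX is known for keeping neural stem cells dividing and undifferentiated. It binds DNA sites with the letters AAGTCA and mostly represses, through the histone demethylase KDM1A and histone deacetylases. CDKN1A encodes p21, an inhibitor of cyclin-dependent kinases that halts the cell cycle, and has been reported as a gene that TLX represses. SIRT1 encodes an NAD-dependent deacetylase and has been reported as a gene that TLX activates. VHL is the substrate-binding subunit of the ubiquitin ligase that marks HIF subunits for destruction in the presence of oxygen, and its protein has been reported to bind TLX.

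The rows of the p21 and SIRT1 genes can be set against the sequence at their start sites, which is shown because the AAGTCA letters are present at one and not at the other. AAGTCA was searched on both strands of the 300 bases from 250 before to 50 after the RefSeq start (GRCh38.p14). It occurred 1 time at CDKN1A, beginning at base 20 of the transcript, and 0 times at SIRT1 and in both windows of NR2E1. The letters were present in 12.5% of all 35116 windows of this length. A match is a description of letters and not of binding. Sequence outside these windows was not searched, so 0 matches do not show that a gene lacks such letters elsewhere. The CDKN1A stretch is at chr6:36678721-36678750, on the + strand and inside an annotated exon, with AAGTCA in capitals:
CDKN1A: gagcagctgccgAAGTCAgttccttgtgga

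Further upstream CDKN1A carries GC boxes, the GGGCGG letters that the activator Sp1 is known to bind, and SIRT1 carries E-boxes, the CACGTG letters bound by MYC and related factors. These motifs were chosen after the windows had been seen. GGGCGG occurred 4 times in each of the windows of CDKN1A and SIRT1, with 1 pair sharing a base at CDKN1A, and was present in 44.95% of all windows. CACGTG occurred 2 times at SIRT1 and was present in 7.26% of windows, with 2 or more matches in 0.664%. The stretches shown, with 2 GC boxes in capitals at CDKN1A (chr6:36678584-36678657, + strand) and E-boxes in capitals at SIRT1 (chr10:67884506-67884635, + strand), hold no annotated exon base:
CDKN1A: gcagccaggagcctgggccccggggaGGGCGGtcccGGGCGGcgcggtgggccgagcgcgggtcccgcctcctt
SIRT1: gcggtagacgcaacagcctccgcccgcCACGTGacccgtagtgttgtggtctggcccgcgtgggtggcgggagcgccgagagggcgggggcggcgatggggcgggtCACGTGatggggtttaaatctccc

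Effective library sizes, recovered from the steps between low values, were 73.8 to 91.8 M reads. The libraries of TLX+siTLX differed most among themselves: per gene, the chi-square was 59.8 for the pair S7 and S9, 34.98 for S8 and S9, and 25.2 for S7 and S8. Mesenchymal markers of MDA-MB-231 (VIM, CD44, AXL, SNAI2, CAV1 and MSN) were all at a log2 CPM of 4.39 or higher in every library. Their summed level was 3717 to 3822 CPM in CTL+siCTL, 4181 to 4241 CPM in TLX+siCTL and 5568 to 5877 CPM in TLX+siTLX. In this order of groups the means of CD44, AXL, SNAI2 and CAV1 were higher at each step. Mean VIM was 10.66, 10.02 and 10.69 log2 CPM, and mean MSN was 9.61, 9.61 and 9.86. ESR1 stayed between -2.88 and -1.78. Of 6 luminal genes 3 stayed under a log2 CPM of 1 in every library, and the summed luminal level was 49.1 to 53.3 CPM in CTL+siCTL, 18.7 to 20.9 in TLX+siCTL and 27.8 to 33.2 in TLX+siTLX. The luminal genes did not move together. Mean SPDEF was 5.45, 3.19 and 3.48 log2 CPM in the order CTL+siCTL, TLX+siCTL and TLX+siTLX, while mean GATA3 was 2.37, 3.30 and 4.24. How far these marker levels take part in the results was not tested. PC3, the name of a prostate line, stands unexplained in the titles of the CTL+siCTL samples. Of 6 prostate genes 5 stayed under a log2 CPM of 1 in every library, with KLK3 at the lowest value of the table in at least 1 library.

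NR2E1 (ENSG00000112333, GRCh38 chromosome 6, 108166058 to 108188809) was nearly silent in CTL+siCTL, rose in TLX+siCTL and lay between these levels in TLX+siTLX. CPM here are reads of a gene plus a prior count of about 2, scaled to the size of the library. In CPM NR2E1 was 0.0415, 0.0514 and 0.0442 in the control libraries, and much of each of these values is the prior count. In TLX+siCTL it was 1.21, 0.559 and 1.18 CPM, with S5 the low one. In TLX+siTLX it was 0.164, 0.0946 and 0.294 CPM, with S9 the high one. The 3 groups did not overlap. In bulk RNA, fewer cells with a transcript and less of it per cell cannot be told apart. Behind these levels stood an estimated 1.35 to 2.02 reads per control library, 42.0 to 109.1 in TLX+siCTL and 5.35 to 23.4 in TLX+siTLX, so counting error is large in the first and last of these.

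In rebuilt reads NR2E1 was 46.7 times as high in TLX+siCTL as in CTL+siCTL (exact 95% binomial interval 19.4 to 149.6, counting error only). Without S5 this ratio was 56.4 (23.4 to 180.8). After the siRNA NR2E1 was at 0.168 of its TLX+siCTL level (0.117 to 0.236), or 0.108 (0.0618 to 0.178) without S9 and 0.140 (0.0968 to 0.197) without S5. By limma with Benjamini-Hochberg adjustment over all rows, the log2 fold change of NR2E1 was 4.35 ± 0.47 (SE, adjusted p = 0.000133) in the first comparison. It fell by 2.48 ± 0.47 with the siRNA (adjusted p = 0.00494), and it was 1.86 ± 0.47 above control cells after it (adjusted p = 0.0134). The last call was lost without S1 (1.80, adjusted p = 0.0549) and with 1 added to the CPM (0.18, adjusted p = 0.387), over a range of adjusted p from 0.00515 to 0.387. These log2 values, like the CPM values, hold a prior count and understate the changes of a gene this low. In the authors' deposited table the signed fold changes of NR2E1 are 33.95, -6.21 and 5.47.

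Even in TLX+siCTL the mean log2 CPM of NR2E1 was above that of only 51.0% of rows. Per kilobase of annotated exon, NR2E1 reached 0.263 CPM in TLX+siCTL, against 85.1 for CDKN1A, 25.04 for VHL and 12.5 for SIRT1. This order was the same in all 3 groups by the group means. The sources used here do not say which part of the transcript the overexpressed copy carries, so its length is an assumption.

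**Figure D1:**
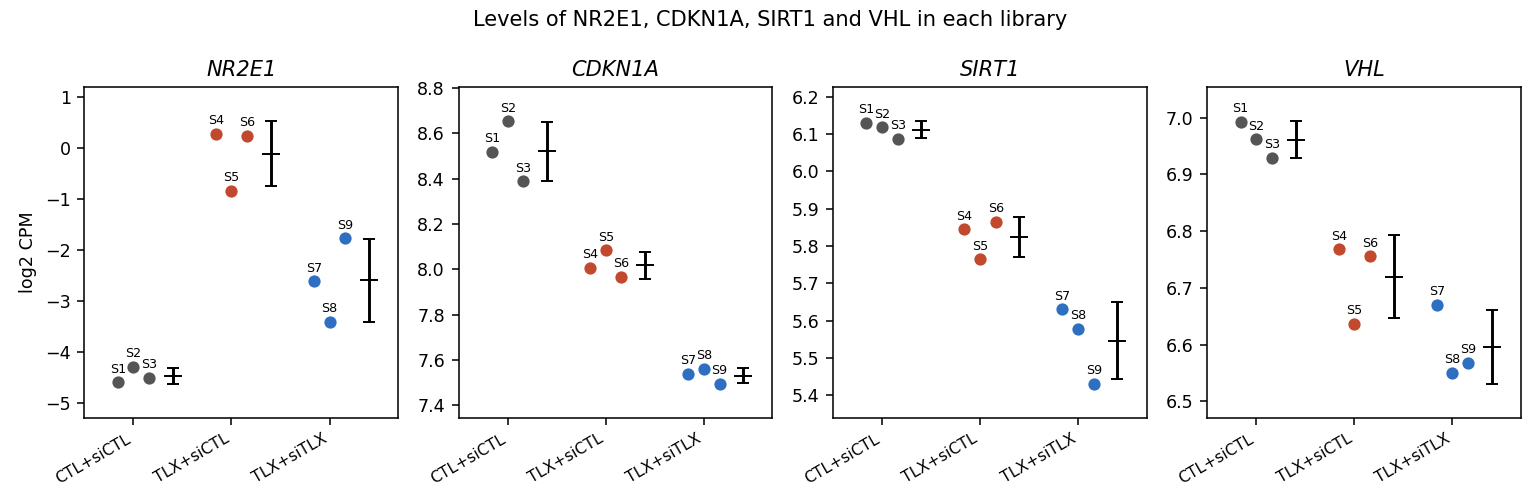
Log2 CPM of each gene in each library (points, labelled S1 to S9) by group, with the group mean and SD (n = 3) beside the points, and a vertical axis of its own for each gene. NR2E1 is highest in TLX+siCTL and intermediate in TLX+siTLX, whereas CDKN1A and SIRT1 are highest in CTL+siCTL and lowest in TLX+siTLX, and the VHL values of S5 and S7 cross.

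CDKN1A (ENSG00000124762, chromosome 6, 36676460 to 36687339) was lower in TLX+siCTL than in control cells and lower again after the siRNA. It was at 367, 403 and 335 CPM in CTL+siCTL, 257, 271 and 250 CPM in TLX+siCTL, and 186, 189 and 180 CPM in TLX+siTLX. No control library came down to a TLX+siCTL library, and no TLX+siCTL library to a TLX+siTLX library. The spread was widest in the control cells, at an SD of 0.13 on the log2 scale, against 0.06 in TLX+siCTL and 0.03 in TLX+siTLX.

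With TLX overexpression CDKN1A fell by 0.50 ± 0.06 on the log2 scale (limma adjusted p = 0.000367), a change of -29.4% (95% interval -36.2 to -21.8). With the siRNA, while NR2E1 went down, CDKN1A fell by a further 0.49 ± 0.06 (adjusted p = 0.00074), which is -28.7% (-35.6 to -21.1). TLX+siTLX thus stood 0.99 ± 0.06 below control cells (adjusted p = 4.70e-06), at -49.6% (-54.5 to -44.2). The siRNA step and the overexpression step differed by 0.013 in log2 fold change, with a 95% interval of -0.24 to 0.27. For CDKN1A the authors' deposited table has -1.42, -1.40 and -1.99 as signed fold changes. An antisense transcript, DINOL, shares exon sequence with CDKN1A and has no row in the table. The library kit is stranded, but the sources used here do not say whether strand was used in counting.

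SIRT1 (ENSG00000096717, chromosome 10, 67884669 to 67918390) had the same order of groups as CDKN1A with smaller differences. It was at 70.1, 69.5 and 68.0 CPM in CTL+siCTL, 57.5, 54.3 and 58.2 CPM in TLX+siCTL, and 49.5, 47.7 and 43.2 CPM in TLX+siTLX. The groups did not overlap. S9, the library with the most NR2E1 after the siRNA, held the least SIRT1, whereas in TLX+siCTL S5 held the least of both. With TLX overexpression SIRT1 fell by 0.29 ± 0.05 (limma adjusted p = 0.0033), or -18.1% (95% interval -24.8 to -10.8). With the siRNA it fell by 0.28 ± 0.05 (adjusted p = 0.00564), or -17.5% (-24.3 to -10.2). It then stood 0.57 ± 0.05 below control cells (adjusted p = 4.54e-05), at -32.4% (-38.0 to -26.4). The steps differed by 0.0097 (95% interval -0.20 to 0.22).

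VHL (ENSG00000134086, chromosome 3, 10141008 to 10152220) was lower in the TLX line, and its further decline with the siRNA did not pass the test. It was at 127.4, 124.6 and 121.8 CPM in CTL+siCTL, 109.0, 99.5 and 108.0 CPM in TLX+siCTL, and 101.9, 93.7 and 94.9 CPM in TLX+siTLX. All control libraries lay above all others, while S5 of TLX+siCTL lay below S7 of TLX+siTLX. With TLX overexpression VHL fell by 0.24 ± 0.05 (limma adjusted p = 0.00466), or -15.4% (95% interval -21.6 to -8.70). The log2 fold change with the siRNA was -0.12 ± 0.05 (adjusted p = 0.108), or -8.21% (-14.9 to -0.946). After the siRNA VHL was 0.36 ± 0.05 below control cells (adjusted p = 0.000336), at -22.3% (-28.0 to -16.2). Without S5 the siRNA value was -0.17 (adjusted p = 0.0411), and without S7 it was -0.16 (adjusted p = 0.0458). The difference between the steps was 0.12 (95% interval -0.07 to 0.31, adjusted p = 0.403). In the authors' deposited table the false discovery rate for VHL with the siRNA is 0.0985.

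**Figure D2:**
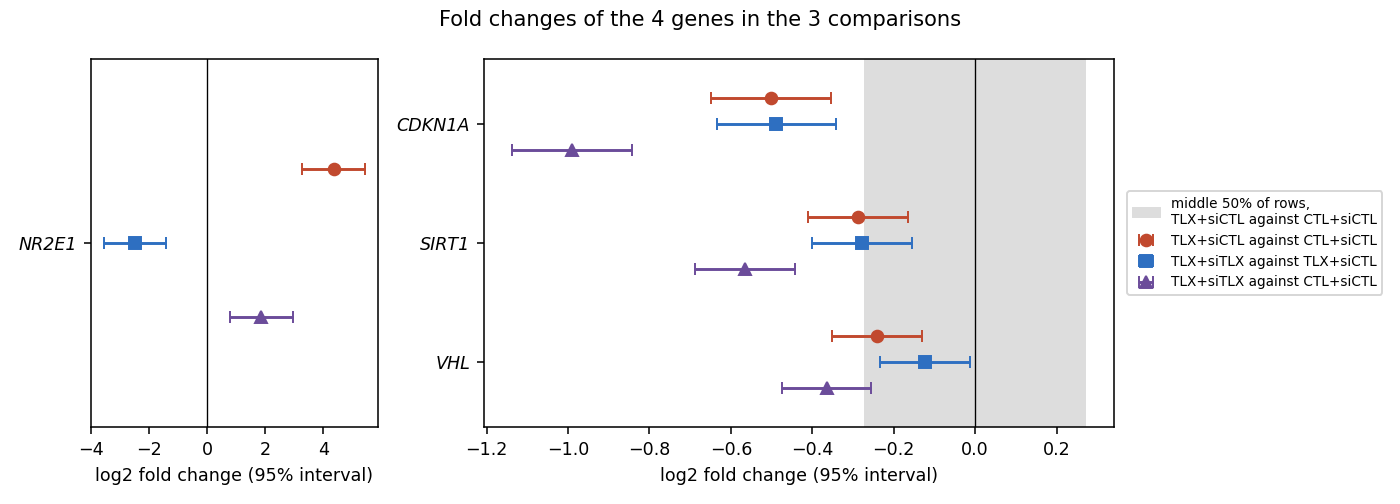
Log2 fold changes with 95% limma intervals of NR2E1 (left) and of CDKN1A, SIRT1 and VHL (right, on a narrower axis) in the 3 comparisons, marked by symbol. The grey band, -0.27 to 0.27, holds the middle 50% of rows whose mean log2 CPM is 1 or more for TLX+siCTL against CTL+siCTL, and among the 3 genes VHL lies inside it in that comparison.

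CDKN1A, SIRT1 and VHL were 3 of 3 lower in TLX+siCTL than in CTL+siCTL, where 27.4% of the 12564 expressed rows (mean log2 CPM 1 or more) were called lower and 29.3% higher. Of all rows 15% were called higher and 15.1% lower in this comparison, 12.7% and 10.9% with the siRNA, and 17.7% and 17% between TLX+siTLX and CTL+siCTL. With the siRNA 2 of the 3 fell, with 22% of these expressed rows called lower and 23.8% higher. After the siRNA all 3 were below control cells, as were 31.2% of these rows, with 32.4% above. In the order of fold changes over the expressed rows, 13.1% had a lower value than CDKN1A in the first comparison, 23.7% than SIRT1 and 27.0% than VHL. With the siRNA these shares were 5.69%, 17.1% and 34.1%, and between TLX+siTLX and control cells they were 4.39%, 12.9% and 21.9%. Groups that did not overlap were found lower in 34.8% and higher in 36.7% of these rows in the first comparison, in 29.1% and 29.2% with the siRNA, and in 35.1% and 36% between TLX+siTLX and control cells. The comparisons share libraries and are not independent of each other.

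An exact two-sided permutation test of 3 against 3 values gave p = 0.1, the smallest it allows, in 11 of the 12 comparisons of these genes, and p = 0.2 for VHL with the siRNA. With library medians of all rows centred, all fold changes moved by 0.12 in the first comparison and by -0.14 with the siRNA. SIRT1 and VHL then lost their calls in the first comparison (-0.17, adjusted p = 0.064, and -0.13, adjusted p = 0.153), and VHL gained one with the siRNA (-0.26, adjusted p = 0.00771). With the medians of only the expressed rows centred, the moves were 0.016 and -0.029. SIRT1 and VHL then kept their calls in the first comparison, and VHL again gained one with the siRNA.

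The rows whose levels over the 9 libraries were most like those of each gene were sought among 11886 symbols whose mean log2 CPM was 1 or more. For CDKN1A they were TGIF1, DDIT3, RIPK2, ATF3 and DNAJB9, with Pearson correlations of 0.992 to 0.994. DDIT3 and ATF3 are transcription factors of the stress response to unfolded protein, and DNAJB9 is a chaperone of the endoplasmic reticulum. Mean DDIT3 went from 7.79 to 6.45 and 5.19 log2 CPM over CTL+siCTL, TLX+siCTL and TLX+siTLX, and mean ATF3 from 6.55 to 5.75 and 5.05. For SIRT1 they were ANKRD42, BACH1, EPRS1, ERN1 and CCNG2 (0.993 to 0.996). ERN1, a sensor of unfolded protein, went from 7.20 to 6.53 and 5.98.

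For VHL the most alike rows were ZRSR2, TAF1D, CCDC91, SAA1 and RPL36AL (0.986 to 0.991). SAA1 is on 2 rows and has a near-identical relative, so its value is uncertain. For NR2E1 they were ATP5PO, PGS1, DCUN1D5, POLR2J and KLF15 (0.986 to 0.991). KLF15, a transcription factor, was at a mean of 2.21, 3.30 and 2.77 log2 CPM in the order CTL+siCTL, TLX+siCTL and TLX+siTLX. The 9 libraries form 3 groups of 3 and are shared by all these rows, and the correlations were the highest of those searched, so they are a description with no test.

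**Figure D3:**
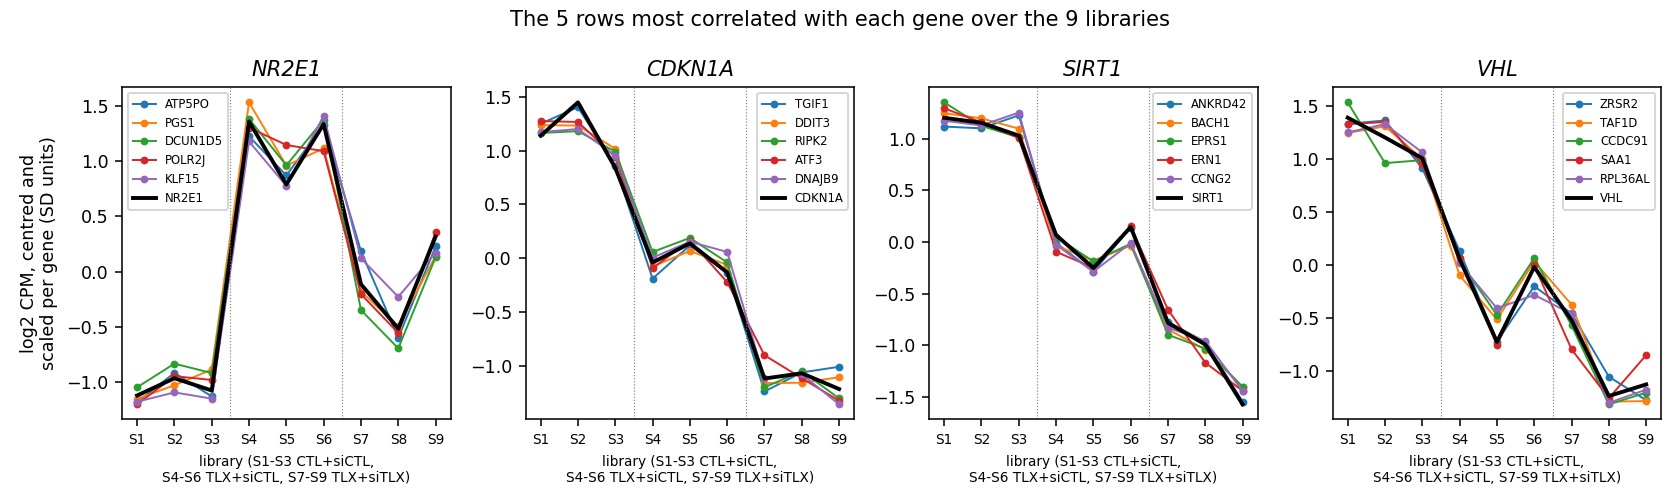
Log2 CPM of each gene (black) and of the 5 rows most correlated with it (colours) in S1 to S9, centred and scaled to SD units per gene, with dotted lines between the groups. The rows alike to NR2E1 peak in S4 to S6, and those alike to CDKN1A, SIRT1 and VHL step down from S1 to S3 over S4 to S6 to S7 to S9.

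A list for p21 held its partners, regulators of its gene and the related inhibitors CDKN1B and CDKN1C. Of its 26 measured genes 15 rose and 6 fell, CDKN1B among them, in TLX+siCTL (median log2 fold change 0.33, against -0.0039 over all 15809 measured symbols, of which 24% rose and 23.9% fell). CDK1, the mitotic kinase, rose by 1.49 ± 0.11 (limma adjusted p = 1.31e-05) and PCNA, the replication clamp that p21 binds, by 0.90 ± 0.05 (adjusted p = 3.08e-06). TP63, a transcription factor of basal epithelium, rose by 1.68 ± 0.40 from a very low level (adjusted p = 0.0115), a call lost without S1, with 1 added to the CPM and in a fit of only the groups compared (0.0504 to 0.0792). MDM2, a ubiquitin ligase, fell by 0.77 ± 0.08, and KLF4, an activator of CDKN1A, by 0.91 ± 0.06. CDK2, the kinase that p21 inhibits, was at 0.20 ± 0.07 (adjusted p = 0.0729), and was called without S4 (adjusted p = 0.047) and with library medians of all rows centred (0.00853).

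With the siRNA 15 of these 26 rose and 2 fell (median 0.30), where 20.3% of measured symbols rose and 17.7% fell. Centring the medians of all rows made this 12 and 6, against 13% and 30.8% of measured symbols. CDK1 rose by a further 1.61 ± 0.11, TP63 by 2.39 ± 0.40, PCNA by 0.50 ± 0.05 and CDK2 by 0.42 ± 0.07. CDK4, a kinase of the G1 phase, fell by 0.66 ± 0.04. SMAD4, a mediator of TGF-beta signals, fell by 0.32 ± 0.08 (adjusted p = 0.0193), a call absent without S5, S6, S8 or S9 (0.0522 to 0.091). MDM2 rose by 0.25 ± 0.08 (adjusted p = 0.0476), a call lost without any 1 of S1 to S8 (0.0851 to 0.172). After the siRNA 16 were above control cells and 7 below, with KLF4 at -1.09 ± 0.06, KLF6 at -0.67 ± 0.06 and MDM2 at -0.52 ± 0.08. CDK1 then stood at 3.09 ± 0.11, TP63 at 4.07 ± 0.40, PCNA at 1.39 ± 0.05 and CDK2 at 0.63 ± 0.07. Of the measured symbols 27.4% were above control cells and 26.7% below.

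Of 18 measured sirtuins and regulators or partners of SIRT1, 8 rose and 4 fell in TLX+siCTL (median 0.13), against 24% and 23.9% of measured symbols. CCAR2, an inhibitor of SIRT1, rose by 0.41 ± 0.07 (limma adjusted p = 0.0015). PPARGC1A, a coactivator that SIRT1 deacetylates, rose by 1.08 ± 0.21, and NMNAT3, an enzyme of NAD synthesis, by 0.54 ± 0.07. NMNAT2, of the same family, fell by 1.62 ± 0.10, and FOXO1, a transcription factor that SIRT1 deacetylates, by 0.98 ± 0.06. NAMPT, which makes the precursor of NAD, was at -0.19 ± 0.11 (adjusted p = 0.237).

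With the siRNA 2 of these 18 rose and 6 fell (median -0.17), against 20.3% and 17.7% of measured symbols. Without S4 or S5 it was 2 and 3. Centring the medians of all rows made it 1 and 11, against 13% and 30.8%. NAMPT fell by 0.61 ± 0.11 (limma adjusted p = 0.0034). HIC1, a repressor of SIRT1, rose by 0.91 ± 0.19 (adjusted p = 0.00826), and the mitochondrial SIRT3 rose by 0.28 ± 0.06, a call lost with those medians centred (adjusted p = 0.212). PPARGC1A fell by 0.75 ± 0.21 (adjusted p = 0.0315), a call absent without S1, S2, S3, S4, S5, S8 or S9 (0.0683 to 0.117). CCAR2 was at -0.18 ± 0.07 (adjusted p = 0.105), and was called lower without S7 (0.025) and with those medians centred (0.00936). After the siRNA 5 were above and 5 below control cells (27.4% and 26.7% of measured symbols), or 1 and 5 without S1, with FOXO1 at -1.30 ± 0.06, NMNAT2 at -1.61 ± 0.10 and NAMPT at -0.80 ± 0.11. HIC1 (0.64 ± 0.19), NMNAT3 (0.29 ± 0.07) and CCAR2 (0.24 ± 0.07) were above. With the 9 libraries left out 1 at a time, HIC1 lost its call without 7 of them, NMNAT3 without 2 and CCAR2 without 4 (0.0513 to 0.125).

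Of 22 measured genes of the VHL ligase and of oxygen sensing by HIF, 7 rose and 7 fell in TLX+siCTL (median 0.08), against 24% and 23.9% of measured symbols. With the medians of all rows centred it was 8 and 3, against 32.3% and 17.3%. The RNAs of both main HIF subunits that VHL binds fell, HIF1A by 0.83 ± 0.04 (limma adjusted p = 2e-06) and EPAS1, which encodes HIF-2 alpha, by 0.58 ± 0.05 (adjusted p = 2.85e-05). Among the ligase subunits CUL2 rose by 0.25 ± 0.04, and ELOB was at 0.05 ± 0.07 (adjusted p = 0.713). ELOC rose by 0.20 ± 0.05 (adjusted p = 0.0194), a call absent without S1, S3, S4 or S6 (0.06 to 0.0704). NDRG1, a hypoxia-induced gene, rose by 0.82 ± 0.06 and ARNT2, a HIF partner, by 0.50 ± 0.04.

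With the siRNA 13 of the 22 rose and 4 fell (median 0.16), against 20.3% and 17.7% of measured symbols, or 9 and 5 with those medians centred, against 13% and 30.8%. HIF1A rose by 0.54 ± 0.04 (limma adjusted p = 3.23e-05), and EPAS1 was at -0.07 ± 0.05 (adjusted p = 0.345), or lower by a called -0.22 (adjusted p = 0.0112) with those medians centred. EGLN3, a HIF prolyl hydroxylase that hypoxia induces, rose by 1.70 ± 0.14 (adjusted p = 5.37e-05), and its relative EGLN2 fell by 0.34 ± 0.05. CA9, a carbonic anhydrase induced by HIF, rose by 3.34 ± 0.83 from a very low level (adjusted p = 0.0181), a call absent without any 1 of S4 to S9 (0.0541 to 0.0783). ELOB rose by 0.39 ± 0.07, while ELOC fell by 0.39 ± 0.05 and CUL2 by 0.23 ± 0.04. After the siRNA 11 were above control cells and 7 below (27.4% and 26.7% of measured symbols), with CA9 at 4.44 ± 0.83, EGLN3 at 2.06 ± 0.14, ELOB at 0.44 ± 0.07 and HIF1A at -0.28 ± 0.04. EPAS1 was at -0.65 ± 0.05, EGLN2 at -0.54 ± 0.05 and ELOC at -0.19 ± 0.05, which lost its call without S2 (adjusted p = 0.0697).

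**Figure D4:**
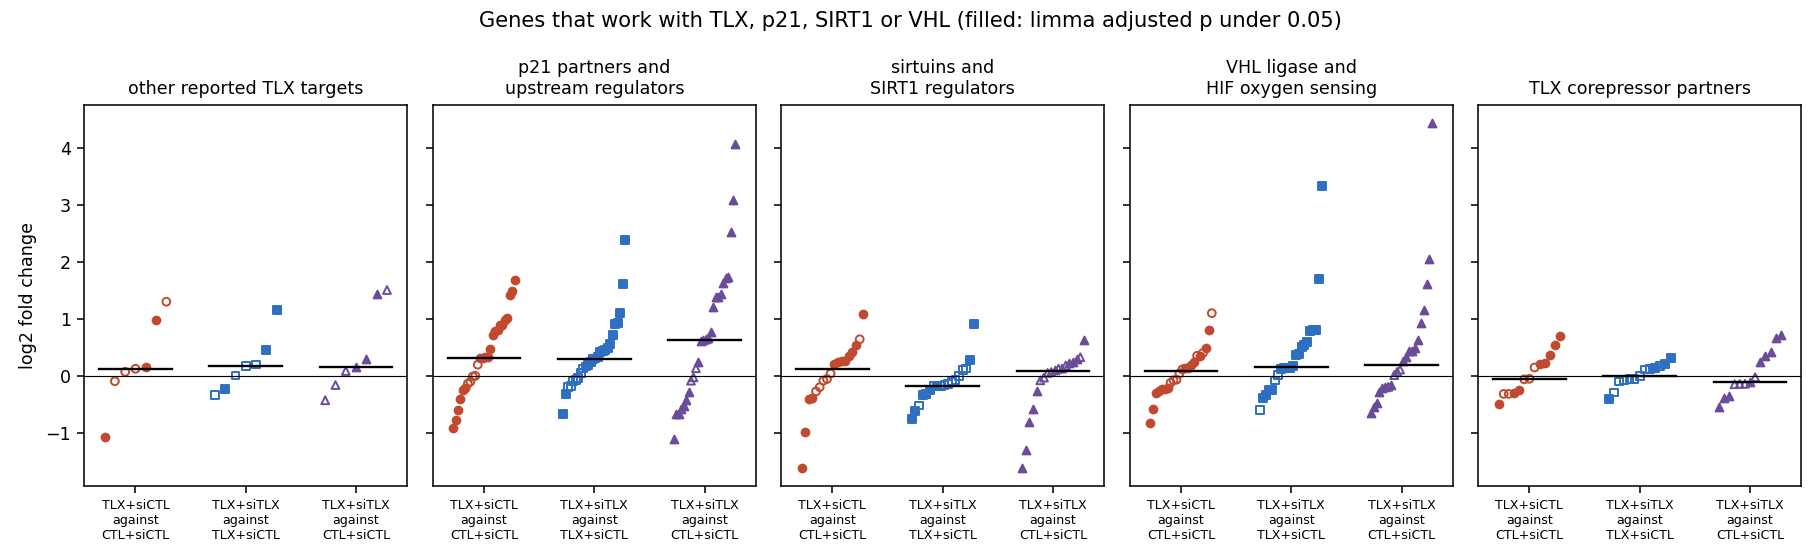
Log2 fold changes of the measured genes of 5 lists in the 3 comparisons, in rising order within each column, with filled symbols for a limma adjusted p under 0.05, open symbols for the others and a black bar at the list median. The genes of the p21 list lie mostly above 0, with medians of 0.33, 0.30 and 0.64, and the other lists lie on both sides of 0.

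Of 13 other genes reported as TLX targets, 10 had a row and 7 were measured. In TLX+siCTL 2 rose and 1 fell (median 0.13), against 24% and 23.9% of measured symbols. CCND1, which encodes cyclin D1, rose by 0.99 ± 0.05 (limma adjusted p = 3.2e-06) and by a further 0.45 ± 0.05 with the siRNA (adjusted p = 0.000387). PLCE1, a phospholipase, fell by 1.07 ± 0.09 with TLX overexpression and rose by 1.16 ± 0.09 with the siRNA, to means of 4.11, 3.04 and 4.20 log2 CPM in the 3 groups. With the siRNA 2 rose and 1 fell (median 0.17), against 20.3% and 17.7%. After the siRNA 3 were above control cells and the other 4 were not called by limma (median 0.16), where 27.4% of measured symbols were above and 26.7% below. This depended on the filter, with 3 above and 2 below among expressed rows and 4 and 2 among rows of mean -3 or more. With no intensity trend 1 was called, above. With the medians of all rows centred 3 were above and 1 below. CCND1 stood at 1.44 ± 0.05. TET3, a methylcytosine dioxygenase, stood at 0.30 ± 0.09 and lost its call without S1, S2, S7 or S8 (0.074 to 0.0992).

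Of 13 corepressor partners of TLX, all measured, 5 rose and 3 fell in TLX+siCTL (median -0.05), against 24% and 23.9% of measured symbols. KDM1A, the demethylase that TLX recruits, rose by 0.22 ± 0.03 (limma adjusted p = 0.000937) and by 0.21 ± 0.03 with the siRNA (adjusted p = 0.00187). HDAC5, a deacetylase in the same complex, rose by 0.38 ± 0.08 with TLX overexpression and fell by 0.40 ± 0.08 with the siRNA. With the siRNA 3 of the 13 rose and 1 fell (median 0.0038), against 20.3% and 17.7%. With the medians of all rows centred 3 fell and the others were not called, where 13% of measured symbols rose and 30.8% fell, and KDM1A (adjusted p = 0.264) and RCOR1 (adjusted p = 0.128) lost their calls.

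HDAC2, a deacetylase, rose by 0.71 ± 0.04 in TLX+siCTL and ZMYM3, a zinc finger protein of KDM1A complexes, by 0.55 ± 0.05, and ATN1, a corepressor, fell by 0.48 ± 0.06. ZMYM2 fell by 0.30 ± 0.10 (limma adjusted p = 0.0421), a call lost without S1, S2, S3, S5, S6, S7 or S9 (0.0553 to 0.15). RCOR1, a scaffold of KDM1A complexes, rose by 0.31 ± 0.07 with the siRNA (adjusted p = 0.00998; without S4, adjusted p = 0.0529). After the siRNA 5 were above and 4 below control cells (median -0.10), against 27.4% and 26.7% of measured symbols, or 4 and 1 without S3. HDAC2 stood at 0.71 ± 0.04, ZMYM3 at 0.67 ± 0.05, KDM1A at 0.43 ± 0.03, HDAC5 at -0.02 ± 0.08 and ATN1 at -0.54 ± 0.06. PHF21A stood at -0.38 ± 0.11 and lost its call without S2, S3, S4, S5, S7 or S8 (adjusted p = 0.0562 to 0.117).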

How the data were processed

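The submitters' processing notes name GRCh38, kallisto 0.44.0, edgeR and limma without saying what each did in the 9 MDA-MB-231 libraries. The authors deposited log2 CPM values, in which the lowest value of -5.33 fits 0 reads plus a prior count of 2. The authors' deposited table also holds signed fold changes, p-values and false discovery rates, and the sources used here do not name its test. Columns name a group and a running number, and 0 columns were left unmapped.

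The deposited log2 values of all 9 libraries were fitted together (limma 3.58.1, R 4.3.3, variance trend on intensity). Tests were two-sided, p-values were adjusted by Benjamini and Hochberg's method over the 27548 rows, and the threshold was 0.05. The fit was also run on simulated data with independent noise, few changed rows and no shift between libraries. Those data lack the widespread changes seen here, so that run does not bear on the choice of centring. Effective sizes of 73.8 to 91.8 M reads were read from low values. Of the values above 0, 11.9% to 12.9% lay within 0.01 of a whole read, so rebuilt reads are estimates. Merged GENCODE 29 exons gave lengths, and RefSeq windows the sequences, with windows for 3 of the 4 genes.

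The genes and lists were chosen with earlier results of these data known. List genes counted as measured at a mean log2 CPM of at least -3, with 1 row per symbol. Named were the 4 genes, the 5 most correlated rows of each, the 2 largest called rises and falls of each list, and direct partners. Results of some genes that these rules name are not reported here.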

Additional observations from a re-analysis of the deposited data

How the results depend on the processing

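CDKN1A kept its direction and call in all 3 comparisons under all 18 alternatives. SIRT1 did so except where library medians of all rows were centred, which left -0.17 in TLX+siCTL against CTL+siCTL, with VHL at -0.13 and a siRNA value of -0.26 for VHL. Centring only the expressed rows (mean of 1 or more in log2 CPM) gave VHL a called siRNA value of -0.15 (adjusted p = 0.0372). With each library left out in turn the siRNA value of VHL was -0.17 to -0.10. The excess of NR2E1 over control cells after the siRNA was 1.45 to 2.27 in this way, and 0.18 with 1 added to the CPM. NR2E1, whose mean is under 1, could not be tested among expressed rows, and its few reads in CTL+siCTL limit its folds. Centring all rows changed the share of higher calls from 49.9% to 64.9% in the first comparison (5578 higher, 3015 lower) and from 53.8% to 29.9% with the siRNA (2253 higher, 5273 lower). The differences between the 2 steps, near 0 and not called, changed sign with all rows centred (CDKN1A -0.24, SIRT1 -0.25, VHL -0.14), with expressed rows centred (-0.032 and -0.035 for CDKN1A and SIRT1) and with quantile normalization (CDKN1A -0.050). Leaving out libraries gave -0.053 to 0.079 for CDKN1A and -0.050 to 0.067 for SIRT1. The limma-voom fit on rebuilt reads and the differences between steps were added after seeing the data. No paired analysis was possible because the columns carry no replicate number of the labels. The cause of these changes was not tested.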
